A study of Mus musculus with 68 samples.

Results

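Gene expression was measured by RNA sequencing in 2 colon tumours of ApcMin mice labelled Cftr knockout and in 2 colon specimens of Apc wildtype mice labelled Cftr knockout. These specimens were chosen by their labels from run 2, the sequencing run that held both groups, and make up 4 of the 23 specimens and 8 of the 68 columns of the series. All came from C57BL/6 mice labelled 3 months of age, and both groups carry the Cftr label, so they differ by label in Apc and in being tumour or normal colon. The study asked which genes and pathways go with Cftr deficiency in Apc wildtype and in ApcMin intestine.

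What limits each group as a model is given by the labels. For Apc wildtype mice the protocol gives a floxed Cftr allele deleted by Cre under the Villin promoter, which is active in intestinal epithelium. Which Cftr allele the ApcMin mice carried is not given in the sources used here. Both tumours carry 1 animal number, while the colon specimens carry 2. A difference between the groups is therefore also a difference between that animal and the others. The p-values rest on a spread between specimens that is pooled over these and other groups of the series, not on the compared specimens alone. For these tumours that spread holds no difference between animals. The groups also differed in sex: Xist, transcribed from the inactive X of females, stood at 55.6 and 46.5 FPKM in the tumours and at 0.0462 and 0.0746 FPKM in colon, and the Y-linked gene Ddx3y at 0.0960 and 0.0787 against 14.2 and 12.8 FPKM. X- and Y-linked genes were left out of every test for this reason, and for other genes the part of sex cannot be told apart from that of the tumour.

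Apc is a scaffold of the complex that marks beta-catenin for destruction. When Apc is lost, as happens to the remaining allele in tumours of ApcMin mice, beta-catenin accumulates and acts with TCF/LEF factors on Wnt target genes, many of which encode inhibitors that feed back on the pathway. Cftr is a chloride and bicarbonate channel of the epithelial surface, and its loss dries the mucus of the gut. Normal colon is covered by absorptive colonocytes, goblet cells, enteroendocrine cells and tuft cells, while Paneth cells and lactose- and sucrose-digesting enterocytes belong to the small intestine.

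Levels are given in FPKM, fragments scaled by transcript length and library size, one value per specimen after averaging its 2 lanes. Sums of the 8 columns ran from 519924.9 to 585249.9 FPKM, with 27.7% to 28.9% of values at 0, and relative depth, read from the steps between low values, differed by at most 1.06 times. SDs in log2(FPKM + 1) were taken over autosomal genes at 1 FPKM or more in 2 or more of the 8 columns. Each is the SD of the difference divided by the square root of 2. Lanes of 1 specimen gave 0.0944 to 0.110, against 0.297 between the tumours and 0.1996 between the colon specimens. Cftr RNA was at 31.6 and 26.9 FPKM in colon and at 14.2 and 21.3 FPKM in the tumours. This difference did not pass the test (log2 change -0.71, SE 0.25, adjusted p = 0.0845) and checks no genotype label, since the gene-level value sums over deleted and retained exons. Apc RNA was at 15.1 and 13.9 FPKM in colon and at 17.1 and 16.5 FPKM in the tumours. Epithelial genes were present in every specimen, with Epcam, the epithelial adhesion molecule, at 759 and 803 FPKM in colon and 854 and 967 FPKM in the tumours. The design text describes the normal colon as epithelial cells and the labels as whole tissue, and the smooth muscle actin Acta2 stood at 453 and 356 FPKM in it.

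Of 13441 autosomal genes tested, 1470 (10.9%) passed an adjusted p of 0.05 in limma, 710 (5.28%) higher and 760 (5.65%) lower in the tumours. Among them 277 rose and 263 fell by more than 1 on the log2(FPKM + 1) scale, on which all changes are given and which understates changes of low genes. The median change over all tested genes was -0.0073, with 49.1% of them positive. Specimen values did not overlap between the groups for 8330 genes (62%), so absence of overlap alone says little here. All 1470 genes past the adjusted p were among them, so their sign could not change when 1 of these specimens was left out. The count fell to 209 without colon 1, 478 without colon 2, 718 without tumour 1 and 475 without tumour 2, fits in which 1 group holds a lone specimen. All 1470 genes kept their sign in these 4 fits, 151 passed in each of them and 632 in none. With the colon specimens and tumours of the series alone, 214 genes passed, and with the compared groups alone 872.

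The 12 largest rises were in AI747448, Mmp7, Reg3b, Defa24, Gm15284, Apoa1, Mmp10, Cxcl5, S100a8, Arg1, Spp1 and Lrg1. AI747448, now named Clca4b, a member of the calcium-activated chloride channel regulator family (chromosome 3, 144910921 to 144932529, minus strand, build GRCm38), led them. Its level was 2.94 and 8.09 FPKM in colon and 749 and 483 FPKM in the tumours, a log2 change of 6.65 (SE 0.44, adjusted p = 0.000152). Mmp7, the matrix metalloproteinase matrilysin, stood at 1.90 and 0.933 FPKM against 159 and 179 (log2 change 6.16, SE 0.52, adjusted p = 0.000282). Reg3b, a secreted antimicrobial lectin, stood at 39.1 and 36.5 FPKM in colon and was far apart in the tumours, at 709 in tumour 1 and 9779.7 in tumour 2 (log2 change 6.09, SE 1.16, adjusted p = 0.0120).

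The alpha-defensins Defa24 and Gm15284, the latter now named Defa30, are antimicrobial peptides of Paneth cells. Defa24 was at 8.17 and 6.19 FPKM in colon and at 679 and 230 FPKM in the tumours (log2 change 5.61, SE 0.99), and Gm15284 at 1.76 and 2.54 against 187 and 52.4 (log2 change 5.001, SE 0.94). Alpha-defensin genes are near-identical copies, so reads could be split among them and the value of each is uncertain. Apoa1, the main protein of high-density lipoprotein, made by liver and small intestine, was at 4.27 and 4.41 FPKM against 288 and 98.2, with tumour 1 the higher, as for both defensins. Mmp10, the stromelysin 2 gene, was at 0.995 and 1.20 FPKM in colon and 73.2 and 52.9 FPKM in the tumours.

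The other 5 of these rises were in secreted proteins or enzymes. Cxcl5, a chemokine that draws neutrophils, was at 0.177 and 0.587 FPKM in colon and 70.8 and 19.9 FPKM in the tumours. S100a8, a subunit of calprotectin carried by neutrophils, was at 1.56 and 1.14 against 105 and 32.7 FPKM. Arg1, arginase, stood at 0.467 and 0.169 FPKM against 38.1 and 26.3, with both tumours close together. Spp1, osteopontin, stood at 0.268 and 0.637 against 78.8 and 12.2 FPKM, and Lrg1, a secreted leucine-rich glycoprotein, at 2.26 and 3.13 against 102 and 58.4. Adjusted p ran from 0.000152 to 0.0120 over the 12 rises, and 7 of the 12 passed in each of the 4 fits that leave out 1 specimen. Reg3b passed in 1 of those fits and Gm15284 in 2.

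**Figure D1:**
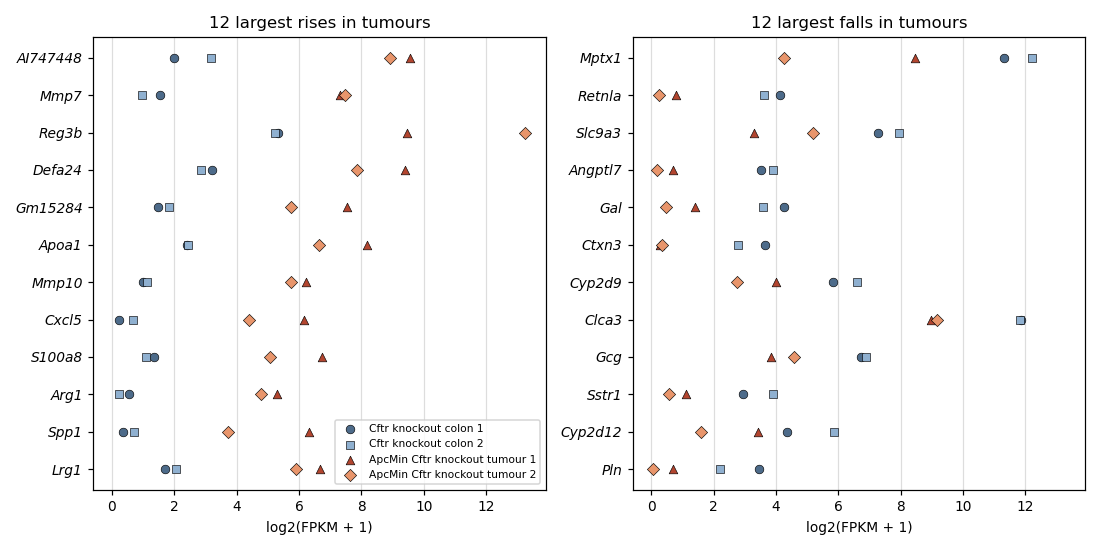
Levels of the 12 largest rises (left) and 12 largest falls (right) as log2(FPKM + 1), 1 marker per specimen (circles and squares for Cftr knockout colon, triangles and diamonds for ApcMin Cftr knockout colon tumours), genes ordered by log2 change. Genes were chosen for values that do not overlap, so every tumour marker lies beyond both colon markers. The tumours lie far apart for Reg3b (709 and 9779.7 FPKM) and Mptx1 (350 and 18.2 FPKM).

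The 12 largest falls were in Mptx1, Retnla, Slc9a3, Angptl7, Gal, Ctxn3, Cyp2d9, Clca3, Gcg, Cyp2d12, Sstr1 and Pln. Mptx1, a mucosal pentraxin gene (chromosome 1, 174330518 to 174332873), fell most, from 2521 and 4771 FPKM in colon to 350 FPKM in tumour 1 and 18.2 FPKM in tumour 2 (log2 change -5.40, SE 1.12, adjusted p = 0.0159). It passed in 1 of the 4 fits that leave out a specimen. Slc9a3, the sodium-hydrogen exchanger NHE3 of the colonocyte surface (chromosome 13, 74121457 to 74169442), fell from 154 and 243 FPKM to 8.87 and 35.1 FPKM (log2 change -3.36, SE 0.56, adjusted p = 0.00738), and passed in all 4. Clca3 of the table, now named Clca1, is a secreted protein of goblet cell mucus and fell from 3685 and 3612 to 500 and 569 FPKM, with adjusted p = 0.0250, but passed in none of the 4.

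Retnla, a resistin-like cytokine gene, was at 16.4 and 11.3 FPKM in colon and 0.715 and 0.177 FPKM in the tumours. Gal, which encodes the neuropeptide galanin, was at 17.9 and 11.0 against 1.65 and 0.394 FPKM. Gcg, which encodes the glucagon-like peptides of enteroendocrine cells, was at 105 and 118 against 13.4 and 23.0 FPKM. These 3 falls had adjusted p = 0.00315, 0.0154 and 0.0478, and Retnla alone of them passed in all 4 fits. Sstr1, a somatostatin receptor gene, fell from 6.62 and 13.9 FPKM to 1.15 and 0.495 FPKM. The detoxification genes Cyp2d9 and Cyp2d12, members of 1 cytochrome P450 cluster on chromosome 15, fell from 56.0 and 94.8 FPKM to 15.2 and 5.71 FPKM and from 19.2 and 56.6 FPKM to 9.82 and 2.05 FPKM.

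Angptl7, an angiopoietin-like gene, was at 10.5 and 14.0 FPKM against 0.637 and 0.130, Ctxn3, a cortexin gene, at 11.4 and 5.87 against 0.225 and 0.274, and Pln, the calcium pump regulator phospholamban of muscle, at 9.97 and 3.65 against 0.631 and 0.0477. All 3 fell. Angptl7 lies within Mtor and Pln within Cep85l on the opposite strand. Without strand information, reads of any exon bases shared by such partners cannot be told apart, and overlap of exons was not checked. The same holds for Anxa8, Ccnd1, Col18a1, Lgr5, Mttp, Ndufs1, Neurod1, Pla2g2a and Tgfb3, each of which overlaps another gene. Of the 12 falls, 3 passed in each of the 4 fits, Angptl7, Retnla and Slc9a3.

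Genes listed as Wnt feedback inhibitors moved both ways. Of 18 tested, 4 rose and 3 fell (38.9% called, beside 10.9% over all genes), and the median log2 change was 0.58, at 0.79 in tumour 1 and 0.16 in tumour 2. Wif1, which binds Wnt proteins outside the cell, rose from 0.787 and 1.03 FPKM to 16.4 and 30.9 FPKM (log2 change 3.63, SE 0.64, adjusted p = 0.00862). Apcdd1, a membrane inhibitor, rose from 1.13 and 0.664 to 3.83 and 8.38 FPKM (adjusted p = 0.0216), and Dkk2 and Rnf43 rose too (log2 changes 1.88 and 1.19). Dkk2 is a secreted ligand of Wnt co-receptors, and Rnf43 a ubiquitin ligase that removes Frizzled receptors.

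The 3 inhibitors that fell were Frzb and Sfrp4, secreted Frizzled-related proteins, and Nkd2. Smooth muscle genes were lower too (median log2 change -2.43), and the part of such tissue in these 3 falls was not tested. Frzb fell from 4.10 and 3.60 FPKM to 1.64 and 1.49 FPKM (log2 change -0.92, SE 0.13, adjusted p = 0.00347) and passed in each of the 4 fits that leave out a specimen. Sfrp4 fell from 1.29 and 1.34 to 0.530 and 0.180 FPKM. None of the other inhibitors passed in all of these fits, in which 0 to 2 of the list rose and 1 to 2 fell. Axin2 and Notum, named outside the rule as the best known inhibitors and after their values were seen, did not pass. Axin2, a scaffold of the destruction complex, was at 10.1 and 8.70 FPKM in colon and at 24.4 and 16.6 FPKM in the tumours (log2 change 1.03, adjusted p = 0.156). Notum, which inactivates Wnt proteins, was at 0.242 and 0.264 against 12.1 and 14.8 FPKM (log2 change 3.52, adjusted p = 0.0537).

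Of 23 beta-catenin targets of growth and positioning tested, 7 rose and none fell (30.4% called), with a median log2 change of 0.67 and 20 of 23 positive. Sp5, a transcription factor that answers directly to Wnt, rose from 0.136 and 0.0585 FPKM to 3.08 and 2.92 FPKM (log2 change 1.87, SE 0.30, adjusted p = 0.00660). Ephb2, the ephrin receptor that places cells along the crypt, rose from 19.4 and 16.3 to 26.7 and 30.8 FPKM, Plaur, the urokinase receptor, from 6.34 and 4.81 to 23.3 and 25.5, and Ccnd1, cyclin D1, from 33.7 and 28.2 to 54.5 and 65.8. In these genes the 2 tumours were close together and apart from both colon specimens. These genes were chosen by small p, which favours specimens of a group that lie close. No gene past the adjusted p had overlapping specimens, so this pattern follows from the choice. Without colon 1, colon 2, tumour 1 or tumour 2 in turn, the list gave 2, 1, 4 and 1 rises.

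Crypt stem cell genes showed little that passed: of 18, 1 rose and 1 fell (11.1% called), with a median log2 change of 0.51, at 0.42 in tumour 1 and 0.19 in tumour 2. Each of these calls was made in 1 or 2 of the 4 leave-one-out fits. Olfm4, a secreted marker of stem cells in the small intestine, rose from 0.358 and 0.226 FPKM to 6.17 and 2.80 FPKM (adjusted p = 0.0108). Rgmb, a BMP co-receptor, fell from 29.1 and 26.3 to 15.6 and 13.3 FPKM (adjusted p = 0.00884). Smoc2 and Bmi1 stood at 16.7 and 18.1 against 37.7 and 31.3 FPKM and at 9.01 and 8.30 against 10.6 and 12.9 FPKM, with adjusted p of 0.0666 and 0.0762. Lgr5, the receptor that marks crypt base stem cells and is named here outside the rule, was at 1.51 and 1.41 FPKM in colon and 8.69 and 3.75 FPKM in the tumours, adjusted p = 0.115. Among 22 tested Wnt ligands and receptors, the receptor gene Fzd1 and the co-receptor gene Lrp5 rose and the co-receptor gene Lrp6 fell (13.6% called, median log2 change -0.11). Lrp5 was at 19.0 and 16.9 FPKM against 29.7 and 26.3, and Lrp6 at 26.6 and 26.6 against 20.2 and 17.6. Neither passed without any 1 of the 4 specimens.

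The regenerating and fetal-like epithelium is a state described after injury of the gut. Of 20 of its genes tested, 11 rose and none fell (55% called), and 17 were positive and 3 negative, with a median log2 change of 1.39, at 1.43 in tumour 1 and 1.33 in tumour 2. Anxa1, the annexin that limits inflammation, rose from 141 and 137 FPKM to 461 and 427 FPKM (log2 change 1.67, SE 0.20, adjusted p = 0.00221). Anxa8, which encodes a further annexin, rose from 30.7 and 19.1 to 273 and 169 FPKM. Anxa1 and Anxa8 both passed in each of the 4 fits. Without colon 1, colon 2, tumour 1 or tumour 2 in turn, the list gave 3, 6, 6 and 7 rises.

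Matrix metalloproteinases, which cut the extracellular matrix, gave 5 rises and no fall among 17 tested metalloproteinases and inhibitors (29.4% called, median log2 change 0.37), and 3, 4, 4 and 5 rises without colon 1, colon 2, tumour 1 and tumour 2 in turn. Besides Mmp7 and Mmp10, Mmp13, a collagenase, rose from 1.80 and 1.92 FPKM to 56.6 and 35.4 FPKM (log2 change 4.00, SE 0.55, adjusted p = 0.00347). Mmp9, a gelatinase also carried by neutrophils, rose from 1.24 and 1.20 to 7.74 and 6.60 FPKM (log2 change 1.88, adjusted p = 0.00768). Mmp7, Mmp10 and Mmp13 passed in each of the 4 fits.

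Because Mmp7, Mmp10 and Mmp13 rose most and lie on 1 chromosome, the 250 bases before their start sites in RefSeq (build GRCm38.p6, plus strand of chromosome 9) are shown, a choice made after their values were seen. They are chr9:7691840-7692089, chr9:7502092-7502341 and chr9:7272264-7272513. Capitals mark the letters TGANTCA, the recognition sequence of AP-1 factors, found on either strand. RefSeq lists a further start for Mmp7 (window chr9:7692091-7692340, not shown), whose window holds no TGANTCA and 1 match to CTTTGA, the TCF/LEF core.

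Mmp7: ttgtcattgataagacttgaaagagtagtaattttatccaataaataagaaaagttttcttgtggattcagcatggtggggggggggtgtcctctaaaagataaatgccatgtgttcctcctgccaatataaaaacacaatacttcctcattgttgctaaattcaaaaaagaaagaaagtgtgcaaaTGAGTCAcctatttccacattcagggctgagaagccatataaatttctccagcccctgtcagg
Mmp10: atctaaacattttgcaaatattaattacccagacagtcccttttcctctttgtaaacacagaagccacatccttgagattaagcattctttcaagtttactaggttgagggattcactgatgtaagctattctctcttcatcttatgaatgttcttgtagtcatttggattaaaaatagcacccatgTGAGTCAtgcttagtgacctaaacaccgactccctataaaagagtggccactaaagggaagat
Mmp13: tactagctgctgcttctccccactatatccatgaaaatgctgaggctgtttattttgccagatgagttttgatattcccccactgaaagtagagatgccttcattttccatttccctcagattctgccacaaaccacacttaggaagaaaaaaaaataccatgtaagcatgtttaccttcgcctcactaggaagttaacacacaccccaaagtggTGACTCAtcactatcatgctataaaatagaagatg

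Each window shown held 1 match, its first base 63 bases before the start in Mmp7 and in Mmp10 and 35 bases before it in Mmp13. TGANTCA was found in 6.75% of 32851 windows of this length, in 5.08% of the windows of tested genes, in 8.69% of those of genes higher in the tumours and in 6.05% of those of genes lower in them. These matches describe letters in a window and were not tested as sites.

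For 5 of the 7 Wnt feedback inhibitors past the adjusted p, all but Apcdd1 and Sfrp4, the TCF/LEF core CTTTGA was searched on either strand in the same kind of window. It was found in 13.8% of all windows, 10.7% of those of tested genes, 12.2% of those of genes higher in the tumours and 9.78% of those of genes lower in them. CTTTGA and TGANTCA can share the letters TGA. The windows of Nkd2, Wif1, Dkk2 and Rnf43 held no match and that of Frzb held 1. Dkk2, which rose, and Nkd2, which fell, are shown as a pair of inhibitors that moved in opposite directions (chr3:132085042-132085291, plus strand, and chr13:73847632-73847881, minus strand).

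Dkk2: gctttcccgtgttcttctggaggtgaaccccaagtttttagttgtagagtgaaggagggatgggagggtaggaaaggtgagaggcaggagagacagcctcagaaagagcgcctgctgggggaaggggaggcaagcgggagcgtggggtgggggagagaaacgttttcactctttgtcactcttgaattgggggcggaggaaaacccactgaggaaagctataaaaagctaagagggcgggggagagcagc
Nkd2: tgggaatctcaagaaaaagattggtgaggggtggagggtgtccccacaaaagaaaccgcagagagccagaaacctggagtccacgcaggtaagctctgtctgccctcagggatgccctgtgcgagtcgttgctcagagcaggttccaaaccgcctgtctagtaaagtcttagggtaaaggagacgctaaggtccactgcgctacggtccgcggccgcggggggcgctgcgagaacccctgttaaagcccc

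Of 29 genes of colonocyte electrolyte and water transport tested, 6 fell and none rose (20.7% called), and the median log2 change was -1.07 with 23 of 29 negative. Besides Slc9a3 and Clca3, the phosphate transporter gene Slc20a1 fell from 91.3 and 266 FPKM to 49.6 and 21.9 FPKM. Clca3 is also a member of the goblet cell list, so its fall is counted in both lists. Colon 2 was well above colon 1 for Slc20a1. Without colon 1, colon 2, tumour 1 or tumour 2 in turn, the list gave 2, 1, 2 and 1 falls, and without tumour 2 the list also gave 1 rise.

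Genes of the other mature cell types of colon were mostly lower, with few past the test. Goblet cell genes gave 2 falls in 18 (11.1% called, median log2 change -0.50, at -0.71 in tumour 1 and -0.31 in tumour 2), and 0 in each fit without 1 specimen. Besides Clca3, Fcgbp, which encodes a large mucus protein, fell from 869 and 755 FPKM to 259 and 232 FPKM (adjusted p = 0.0304). Zg16, a lectin of the mucus layer, was at 8199 and 8083 FPKM against 2379 and 3627, with adjusted p = 0.110. Enteroendocrine genes gave 3 falls in 18 (16.7% called, median log2 change -0.87): besides Gcg these were the granin gene Scg3 (3.75 and 3.08 FPKM against 1.34 and 0.580) and the transcription factor gene Neurod1 (1.61 and 1.60 against 0.940 and 0.396). Insl5, a hormone of colonic enteroendocrine cells, was at 159 and 265 against 59.4 and 16.8 FPKM, with adjusted p = 0.0595. Enteroendocrine genes gave 0, 0, 4 and 0 falls without colon 1, colon 2, tumour 1 and tumour 2 in turn. Of 11 tuft cell genes 1 fell (9.09% called), Ptgs1, which encodes cyclooxygenase 1, and 0, 0, 0 and 2 in those fits. In bulk tissue, fewer cells of a type and less RNA per cell cannot be told apart.

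Paneth cell and Reg family genes showed the largest median change of the 35 lists, 3.42, with 10 rises and 1 fall, that of Mptx1, in 16 tested (68.8% called). Pla2g2a, the secreted phospholipase known as a modifier of ApcMin tumour number, rose from 5.52 and 7.85 FPKM to 81.4 and 109 FPKM (log2 change 3.65, SE 0.45, adjusted p = 0.00238) and passed in each of the 4 fits. Lyz1, the lysozyme of Paneth cells, rose from 11.6 and 13.6 to 284 and 215 FPKM. Defa22, another alpha-defensin, was at 0 and 0.159 FPKM against 23.1 and 5.21, and Reg3a, an antimicrobial lectin, at 0.0563 and 0.117 against 3.67 and 3.14, and both rose. Without colon 1, colon 2, tumour 1 or tumour 2 in turn, the list gave 1, 5, 7 and 6 rises. The median level of the 10 risers was 13.7% in tumour 1 (range 3.93% to 23.4%) and 10.8% in tumour 2 (range 0.888% to 205%) of that in ileum tumours of the same animal number, and 0.492% in colon. These 10 were chosen as higher than colon, so the gap to colon follows from that choice.

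Of 23 small-intestinal enterocyte genes tested, 8 rose and none fell (34.8% called), and 16 were positive and 7 negative. The median log2 change was 1.12, at 1.62 in tumour 1 and 0.64 in tumour 2. The summed level of the list did not rise, at 1503.8 and 927.2 FPKM in colon and 1338.1 and 1001.2 FPKM in the tumours. Sis, the sucrase-isomaltase of the brush border (chromosome 3, 72888557 to 72967863), was at 0.284 and 0.306 FPKM in colon and at 17.0 and 6.29 FPKM in the tumours (log2 change 3.14, SE 0.41, adjusted p = 0.00311). Apoc3 and Apoa4, apolipoproteins of fat-absorbing cells, were at 0.534 and 0.444 against 14.2 and 5.31 FPKM and at 2.33 and 2.78 against 133 and 38.2 FPKM. Mttp, which loads lipid onto lipoproteins, was at 0.924 and 1.37 against 18.2 and 6.45 FPKM. All 8 were higher in tumour 1 than in tumour 2, and Sis and Apoc3 passed in each of the 4 fits. Without colon 1, colon 2, tumour 1 or tumour 2 in turn, the list gave 2, 5, 5 and 11 rises.

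The levels of these 8 genes were compared with those in the 2 ileum tumours that carry the same animal number. Their median was 9.90% of the ileum tumour level in colon tumour 1 (range 6.95% to 14.3%) and 3.47% in colon tumour 2 (range 2.58% to 5.35%), against 0.412% in the colon specimens. The 8 were chosen as higher than colon, so that gap follows from the choice. Over all 23 tested genes of the list, called or not, the medians were 10.2% in tumour 1 (range 4.70% to 49.6%), 5.21% in tumour 2 (range 2.51% to 128%) and 1.83% in colon (range 0.117% to 190%), ranges that overlap. Ileum tumours were taken from the same animal number, and the part of ileum tissue in these values was not tested.

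**Figure D2:**
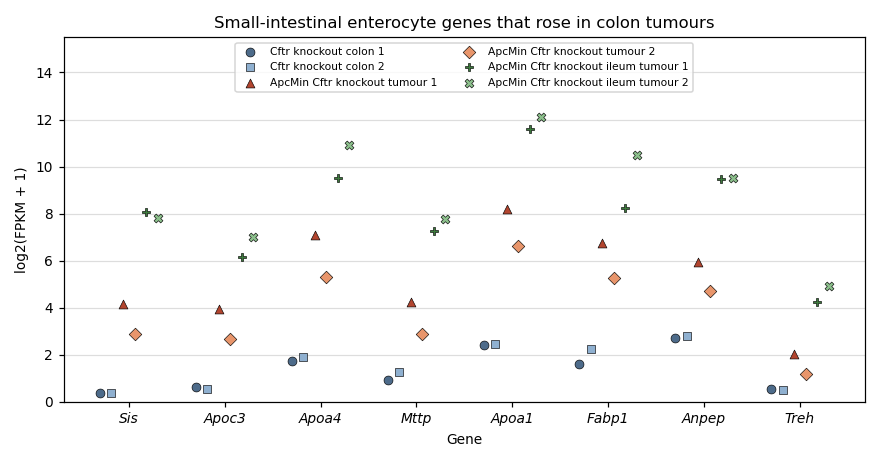
Levels of the 8 small-intestinal enterocyte genes that rose, as log2(FPKM + 1), in Cftr knockout colon (circles, squares), ApcMin Cftr knockout colon tumours (triangles, diamonds) and ileum tumours of the same animal number (plus and cross markers), 1 marker per specimen. Colon tumour 1 lies above colon tumour 2 for every gene. Both lie below the ileum tumours and above the colon specimens, the latter by the choice of genes.

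Transcription factors of gut segment identity gave no call in 21 tested (0% called by limma) and 5 at an unadjusted p under 0.05. Those of smallest p included Gata5, Hoxd10 and Hoxd13. Gata5 was at 0.982 and 1.20 FPKM against 6.86 and 3.25 (adjusted p = 0.0762). Hoxd13, a gene of the hindmost gut, was at 1.09 and 3.97 FPKM in colon, 99.0 FPKM in tumour 1 and 4.61 FPKM in tumour 2, and Hoxd10 at 0.106 and 0.484 against 10.4 and 0.504 FPKM.

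Ribosome biogenesis genes gave 11 rises and no fall in 23 (47.8% called), with a median log2 change of 0.56 and 22 of 23 positive. Ncl, nucleolin, rose from 42.1 and 41.5 FPKM to 71.8 and 69.7 FPKM (log2 change 0.75, SE 0.16, adjusted p = 0.0176), and Ddx21, a nucleolar helicase, from 22.2 and 22.9 to 33.9 and 38.3. Cell cycle and DNA replication genes gave 9 rises and 1 fall in 29 (34.5% called), with a median of 0.57 and 27 of 29 positive. Rrm1, a subunit of ribonucleotide reductase, rose from 14.6 and 15.2 to 27.5 and 28.5 FPKM and Ccne1, cyclin E1, from 3.56 and 3.95 to 7.14 and 9.84. The fall was in Cdkn2b, an inhibitor of cyclin-dependent kinases, named after its value was seen, from 38.6 and 53.4 FPKM to 25.5 and 21.1 FPKM. These calls depended on all 4 specimens: each list gave 0 to 2 rises when any 1 was left out.

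The lists of metabolism genes passed less often than the 10.9% over all genes, except that of glycolysis. Cyp2d9 and Cyp2d12, given above among the largest falls, are not in the detoxification list. Of 28 detoxification enzyme genes 2 fell (7.14% called) with a median log2 change of -1.07 and 24 of 28 negative, Ugt2b34 from 247 and 279 FPKM to 126 and 130 FPKM and Gstm1 from 330 and 406 to 137 and 135 FPKM. Both encode enzymes that conjugate toxins, and neither passed in any of the 4 fits without 1 specimen. Of 23 fatty acid oxidation and ketone body genes 1 fell (4.35% called, median -0.58), Pdk4, the kinase that spares glucose, from 11.3 and 9.09 FPKM to 0.804 and 4.04 FPKM, a call made in 1 of the 4 fits. Among 25 respiratory chain genes none passed in limma, 17 had an unadjusted p under 0.05 and 24 were negative, with a median of -0.46, and the smallest adjusted p was 0.0587, for Ndufs1 (86.4 and 89.4 against 55.2 and 70.3 FPKM). Of 19 glycolysis genes 2 rose and 1 fell (15.8% called, median 0.07): the lactate exporter gene Slc16a3 rose from 3.25 and 5.87 to 27.5 and 29.5 FPKM (log2 change 2.45, SE 0.27, adjusted p = 0.00122) and passed in each of the 4 fits. Pdk1, a kinase that holds pyruvate out of mitochondria, rose and the enolase gene Eno2, which is used by neurons, fell, each called in 1 of the 4 fits.

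Muscle and nerve genes were lower in the tumours, more so in tumour 2. Of 16 smooth muscle genes 5 fell (31.2% called) and all 16 were negative, with a median log2 change of -2.43, at -1.81 in tumour 1 and -3.01 in tumour 2. Smtn, smoothelin, fell from 45.5 and 36.0 FPKM to 13.7 and 9.65 FPKM (log2 change -1.73, SE 0.25, adjusted p = 0.00407), and Acta2 from 453 and 356 to 122 and 62.3 FPKM. There were 1, 2, 3 and 1 falls without colon 1, colon 2, tumour 1 and tumour 2 in turn. The summed level of the list was 4521 and 3562 FPKM in colon and 1123 and 623 FPKM in the tumours. Of 12 enteric neuron and glia genes 10 fell and 1 rose (91.7% called, median -0.85). Nos1, the nitric oxide synthase of inhibitory motor neurons, fell from 1.83 and 1.05 FPKM to 0.205 and 0.0166 FPKM and passed in each of the 4 fits. The list gave 1, 4, 9 and 1 falls without colon 1, colon 2, tumour 1 and tumour 2 in turn. It summed to 68.8 and 47.6 FPKM in colon and 34.6 and 23.1 FPKM in the tumours.

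The neuron gene that rose was Ret, the receptor of glial-derived neurotrophic factors, from 2.62 and 1.76 FPKM to 7.55 and 10.7 FPKM (log2 change 1.66, SE 0.17, adjusted p = 0.000955). It passed in each of the 4 fits. The summed RNA of both lists moved with the falls of Pln, Gal, Scg3 and Eno2, and its part in them was not tested. Of 9 adipocyte genes none passed in limma, 1 had an unadjusted p under 0.05 and all were negative. Their summed level was 137 and 101 FPKM in colon, 120 FPKM in tumour 1 and 49.9 FPKM in tumour 2. In limma endothelial genes gave no call in 13 (median 0.07, 4 at an unadjusted p under 0.05) and epithelial genes none in 14 (median 0.01, 0 at an unadjusted p under 0.05). The summed epithelial level was 11320 and 11946 FPKM against 10457 and 12793.

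Collagen genes moved both ways, with 1 rise and 2 falls in 16 (18.8% called). Col18a1, a basement membrane collagen that is the source of endostatin, rose from 10.4 and 9.14 FPKM to 31.4 and 33.8 FPKM (log2 change 1.64, SE 0.15, adjusted p = 0.000428). Col8a1 fell from 11.7 and 6.39 to 2.10 and 1.44 FPKM (adjusted p = 0.00546). Both passed in each of the 4 fits.

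**Figure D3:**
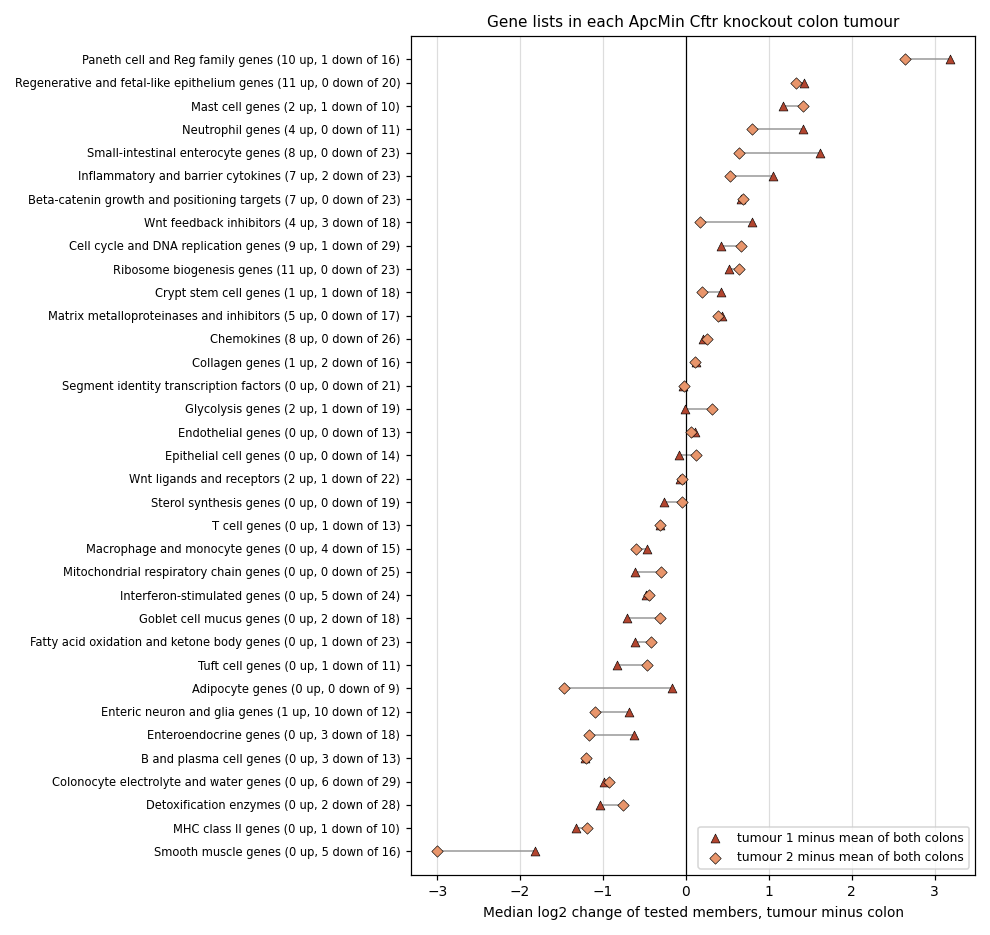
Median log2 change of the tested members of each of 35 gene lists in tumour 1 (triangles) and tumour 2 (diamonds), each against the mean of both Cftr knockout colon specimens, with the number of members that rose and fell in brackets. The tumours lie close for most lists and apart for adipocyte genes (-0.17 and -1.47), smooth muscle genes (-1.81 and -3.01) and small-intestinal enterocyte genes (1.62 and 0.64).

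Of 26 chemokine genes 8 rose and none fell (30.8% called, median log2 change 0.27, 17 of 26 positive), with 2, 6, 4 and 6 rises without colon 1, colon 2, tumour 1 and tumour 2 in turn. Ppbp, a platelet chemokine, rose from 0.125 and 0.126 FPKM to 2.15 and 2.15 FPKM, Ccl7, which draws monocytes, from 2.09 and 2.11 to 9.37 and 5.23, and Cxcl3, which draws neutrophils, from 0.0443 and 0.0448 to 10.03 and 5.31. Of 23 cytokine and barrier genes 7 rose and 2 fell (39.1% called, median 0.77, at 1.05 in tumour 1 and 0.53 in tumour 2), with 2, 4, 3 and 5 rises in the same 4 fits. Saa3, an acute-phase protein, rose from 3.69 and 3.83 FPKM to 38.1 and 61.0 FPKM (log2 change 3.37, SE 0.33, adjusted p = 0.000678). Il11, a cytokine of stromal cells, rose from 0.105 and 0.0852 to 8.82 and 7.36 FPKM, and Lcn2, which withholds iron from bacteria, from 1.86 and 2.97 to 30.8 and 33.7 FPKM. Saa3 and Il11 passed in each of the 4 fits. The 2 falls, named after their values were seen, were in the growth factor genes Tgfb2 and Tgfb3.

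Neutrophil genes were all positive, with 4 rises in 11 (36.4% called, median log2 change 1.22, at 1.41 in tumour 1 and 0.80 in tumour 2). There were 1, 2, 2 and 3 rises without colon 1, colon 2, tumour 1 and tumour 2 in turn. The list summed to 9.87 and 7.86 FPKM in colon and to 194 and 75.4 FPKM in the tumours. The 8 chemokine genes that rose moved with it, a link that was not tested. The whole chemokine list did not, with sums of 391.2 and 431.2 FPKM in colon and 452.6 and 338.5 FPKM in the tumours. Besides S100a8 and Mmp9, S100a9, the partner of S100a8 in calprotectin, rose from 2.02 and 1.43 FPKM to 58.8 and 25.3 FPKM, and so did Il1r2, a decoy receptor for interleukin 1. Of 10 mast cell genes 2 rose, the mucosal mast cell proteases Mcpt1 (2.39 and 6.81 against 37.3 and 61.3 FPKM) and Mcpt2 (0.464 and 3.79 against 29.7 and 47.3 FPKM), and 1 fell, Kit, which is also the receptor of pacemaker cells in gut muscle (25.2 and 16.8 against 9.53 and 8.23 FPKM). That list was 30% called, with 0, 2, 1 and 0 rises and 0, 1, 0 and 0 falls in the 4 fits.

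Among resident immune cells, B and plasma cell genes gave 3 falls in 13 with all 13 negative (23.1% called, median log2 change -1.06). The antibody joining chain gene Igj, now named Jchain, fell from 445 and 681 FPKM to 197 and 136 FPKM (log2 change -1.74, SE 0.33, adjusted p = 0.0122). The list gave 1, 0, 1 and 0 falls without colon 1, colon 2, tumour 1 and tumour 2 in turn. Macrophage and monocyte genes gave 4 falls in 15 (26.7% called, median -0.45), and 2, 1, 1 and 2 falls in those 4 fits. Ly6c2, a marker of monocytes with a near-identical neighbour Ly6c1, fell from 19.7 and 27.9 FPKM to 4.48 and 3.77 FPKM (log2 change -2.26, SE 0.25, adjusted p = 0.00122), and passed in each of the 4 fits. Emr1, which encodes the macrophage antigen F4/80, fell from 7.31 and 7.56 to 3.32 and 4.02 FPKM. Of 13 T cell genes 1 fell (7.69% called), Cd4, from 2.70 and 3.85 to 1.30 and 1.51 FPKM, a call made in 1 of the 4 fits.

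Interferon-stimulated genes gave 5 falls and no rise in 24 (20.8% called, median log2 change -0.49, 22 of 24 negative). Rsad2, the antiviral protein viperin, fell from 2.39 and 3.93 FPKM to 0.918 and 1.11 FPKM, and Stat2, a transcription factor of the interferon response, from 9.33 and 11.1 to 6.91 and 6.27. Of 10 MHC class II genes 1 fell (10% called) and all were negative, with a median of -1.29. H2-Eb1 fell from 69.0 and 102 FPKM to 30.2 and 29.1 FPKM (adjusted p = 0.0318), and Cd74, the invariant chain, was at 315 and 493 against 141 and 134 FPKM with adjusted p = 0.0639. The interferon list gave 3, 0, 1 and 0 falls and the class II list 0 in each without colon 1, colon 2, tumour 1 and tumour 2 in turn.

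The change in Cftr knockout was then set against that in Cftr wildtype, where 2 ApcMin colon tumours of 1 other animal number were compared with 2 colon specimens of Apc wildtype mice. No specimen is shared between these comparisons. Across the 13441 genes the log2 changes correlated at r = 0.815 and rho = 0.810, a description across genes that are not independent of each other. Of the 1470 genes called in Cftr knockout, 1439 had the same sign in Cftr wildtype, 1276 were also called there in the same direction and 31 had the opposite sign. In Cftr wildtype 5126 genes (38.1%) passed in the same fit, so a shared call is read against that share. The wildtype tumours differed more from each other than the knockout tumours (SD of the log2 difference over genes 0.602 and 0.413). The fit pools the spread over groups, so the counts called in each genotype do not rank the changes.

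**Figure D4:**
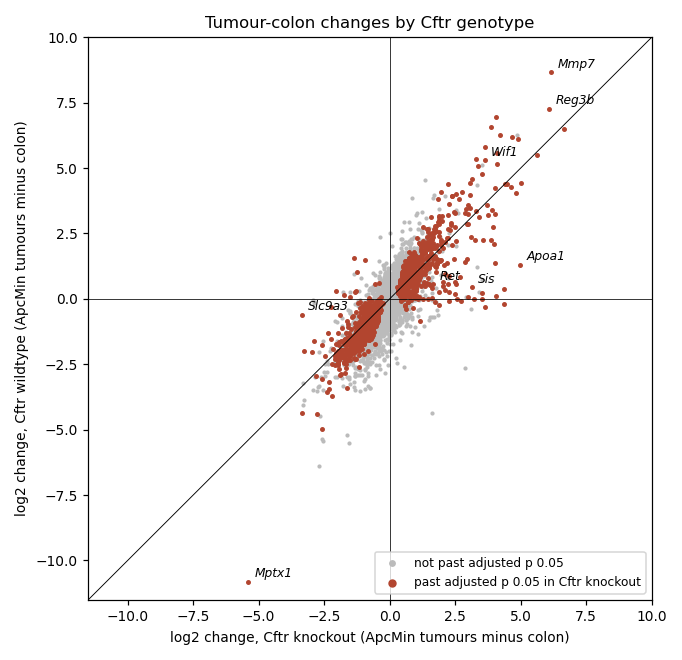
Log2 change of each of 13441 genes in Cftr knockout (horizontal axis) and in Cftr wildtype (vertical axis), ApcMin colon tumours minus colon, with genes past the adjusted p in Cftr knockout in red and the line of equal change. Most red points lie near or beyond the line on the same side of 0, while Sis and Apoa1 lie to the right of it, with larger changes in Cftr knockout.

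In the test of the difference between these changes, 1 gene passed the adjusted p (0.00744%) and 1135 (8.44%) an unadjusted p of 0.05. It was Gm7120, now named Tmem267, at 8.58 and 12.2 FPKM in Cftr knockout colon, 4.96 and 4.71 in the knockout tumours, 7.22 and 5.89 in wildtype colon and 19.3 and 20.5 in the wildtype tumours. The difference of the log2 changes was -2.42 (SE 0.25, adjusted p = 0.0162). This gene overlaps 3110070M22Rik on the opposite strand. Reads of any exon bases shared by the pair cannot be told apart, and overlap of exons was not checked. In limma 0 genes passed without knockout colon 2, knockout tumour 1, wildtype colon 1 or wildtype colon 2, with 992, 505, 1087 and 478 at an unadjusted p under 0.05. Without tumour 2 of the knockout animal 77 passed, and without tumour 1 or tumour 2 of the wildtype animal 3 and 554.

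The genes next in that test by p, none past the adjusted p, included Ide, the insulin-degrading enzyme (difference -0.99, adjusted p = 0.160), Ly6c2 (-1.94, adjusted p = 0.327), Cpn1, a carboxypeptidase subunit (-2.90, adjusted p = 0.319) and Ckap2, a spindle protein (-1.13, adjusted p = 0.327). On the positive side stood the alpha-defensins Gm14851 and Gm21002, now named Defa38 and Defa33 (3.94 and 4.54), and Ret (1.11), Sis (2.71) and Rps4y2 (2.40), with adjusted p of 0.159 to 0.485. Ly6c2 was at 12.97 and 19.5 FPKM in wildtype colon and 11.1 and 14.2 FPKM in the wildtype tumours, beside its fall in Cftr knockout. Sis was at 0.589 and 0.348 FPKM in wildtype colon and at 1.79 and 0.407 in the wildtype tumours. The median of the 23 small-intestinal enterocyte genes was -0.05 in Cftr wildtype, beside 1.12 in Cftr knockout, and that of 19 sterol synthesis genes 0.61 beside -0.16, with no member of either list past the adjusted p of the difference. Each Cftr genotype of tumour came from 1 animal, so genotype and animal cannot be told apart.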

How the data were processed

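Polyadenylated RNA was sequenced, per the labels' protocols. The authors deposited FPKM values in 1 table of 23356 rows and 68 columns, made with TopHat2 2.0.13 and Cuffnorm on build mm10, per the submitters' processing notes. Of its gene names, 23215 matched the GRCm38 annotation of GENCODE or RefSeq, 27 had become dates, 2 were repeated, and 1067 rows were X- or Y-linked and left out. The table holds no counts, so depth was read from the steps of low values and no counting interval was computed.

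The 2 columns of a specimen in run 2 were averaged as log2(FPKM + 1), and printed levels are that mean turned back to FPKM. A gene was tested if it reached 1 FPKM in 2 or more specimens of the fit, with limma 3.58.1 in R 4.3.3 (lmFit, eBayes with a trend, Benjamini-Hochberg adjustment at 0.05). A gene could pass this filter through the group where it is high. The fit took its spread from 17 specimens of 9 groups, all of run 2 but the Cftr wildtype duodenum, whose 2 specimens earlier work found to differ by about the sampling noise. Named genes were Cftr, the 12 rises and 12 falls of largest log2 change past the adjusted p without overlap and with a group mean of 5 FPKM or more, up to 4 members of smallest p in each list, and for the difference the 5 of each sign of smallest p, since only 1 passed. Others are said to be outside the rule, and some genes that the rule takes are not given. The comparison, its lists and this rule were chosen with earlier results of these data known, so lists are described by counts and medians without a test.

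On simulated data with 13441 genes, 71 of 100 2-fold and 95 of 100 4-fold changes were recovered, with 7 false calls. Noise was independent between specimens with the same spread in all groups for a gene, and only genes of higher mean level were changed. The real groups differ in spread and the tumours share an animal, so these figures check the fit and give no error rate for this comparison. Alternatives tried were quantile normalisation, a pseudocount of 0.1, testing without the filter, other sets of specimens, a replicate block and leaving out each specimen. The crossed block and the leaving out of Cftr wildtype specimens were chosen after seeing the data. Motifs were searched in the 250 bases before RefSeq start sites.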

Additional observations from a re-analysis of the deposited data

Results flagged for a closer look

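The change from colon to tumour differed between Cftr genotypes for Gm7120, now named Tmem267, by -2.423 on the log2 scale in limma (adjusted p = 0.0162). Its level fell in Cftr knockout and was higher in tumours than in colon in Cftr wildtype, and in each genotype both tumours lay on the same side of both colon specimens. In Cftr knockout 62% of all tested genes had no overlap, so this separation adds little. Each Cftr genotype of tumour came from 1 animal, so genotype and animal cannot be told apart. The gene lies at chromosome 13, 119488039 to 119611059, and overlaps 3110070M22Rik on the opposite strand. The call was lost, with 0 genes past the adjusted p in limma, without knockout colon 2, knockout tumour 1 or either wildtype colon specimen, with a replicate block, with no filter, and with the compared groups or the colon specimens alone.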

How the results depend on the processing

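The count of 1470 genes became 872 with the compared groups alone and 214 with the colon specimens and colon tumours alone, which leave fewer specimens to estimate the spread. Without 1 specimen it ran from 209 to 2922, highest without either tumour of the Cftr wildtype animal (2910 and 2922), whose spread otherwise enters the fit. A pseudocount of 0.1, no filter and quantile normalisation gave 1398, 1539 and 1784, and with the wildtype duodenum 2084 passed. The 1 gene that differed between genotypes passed with a pseudocount of 0.1 and after quantile normalisation. With no filter, the compared groups alone or the colon specimens alone, 0 passed in limma, with 1604, 754 and 753 at an unadjusted p under 0.05, and without 1 specimen the count ran from 0 to 554. Of the 106 named genes past the adjusted p, 37 kept that call without colon 1, 55 without colon 2, 70 without tumour 1 and 48 without tumour 2, and none changed sign. The sign of a gene past the adjusted p could not change there, since no such gene had specimens that overlap between the groups. Adipoq, which did not pass, ran from -1.70 to 0.23 without 1 specimen.

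Replicate numbers were checked for pairing. Deviations of same-numbered specimens correlated at -0.2045 across genes in Cftr knockout and -0.0796 in Cftr wildtype, and both tumours carry 1 animal number, so the specimens share only a number. With a replicate block 1761 genes passed and the difference gave 0, with 1340 at an unadjusted p under 0.05. A crossed pairing gave 1535 and 2.

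Depth bears mainly on genes of low FPKM, whose value of 1 fragment is not given by the table. With 2 specimens a group, both tumours from 1 animal, and groups that also differ in sex, no setting separates tumour from animal.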

Other observations

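A colon tumour of an Apc wildtype mouse labelled Cftr knockout was also read in run 2. It is 1 specimen and has no replicate check, and the same colon specimens serve it as controls. Mmp7 was at 216 FPKM in it, AI747448 at 308, Reg3b at 1536 and Slc9a3 at 10.9 FPKM. Apoa1, at 98.2 FPKM or more in the ApcMin tumours, was at 5.19 FPKM in it, beside 4.27 and 4.41 FPKM in colon, and Sis was at 0.521 FPKM.

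The 2 ApcMin tumours of 1 animal number differed from each other by more than 1 on the log2 scale for 449 of 13441 genes (3.34%), and by more than 2 for 69. The colon specimens, from 2 animal numbers, did so for 127 genes (0.945%) and for 9. Among these, 2 transcription factor genes of the hindmost gut are given here, named after their values were seen. Hoxd13 was at 99.0 FPKM in tumour 1 and 4.61 FPKM in tumour 2, and Hoxb13 at 229 and 24.7 FPKM. In colon they were at 1.09 and 3.97 FPKM and at 94.9 and 226 FPKM, and in ileum tumours of the same animal number at 0.157 and 8.37 FPKM and at 0.367 and 22.4 FPKM. Cdx2, which sets intestinal identity, was at 19.0 FPKM in tumour 1 and 106 FPKM in tumour 2, beside 134 and 95.4 FPKM in colon.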
